A study of Mus musculus with 2 samples.

Results

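The miRNA genes described here are the 6 genes of the miR-34/miR-449 family (Mir34a, Mir34b, Mir34c, Mir449a, Mir449b and Mir449c) together with Mir204 and Mir211. They were chosen by name, by matching Ensembl identifiers to GENCODE symbols, and all 8 were found among the 1973 miRNA genes of each count table. MicroRNA sequencing, which reads the short RNAs of a sample, was done on the neural tube, the embryonic tissue that becomes brain and spinal cord. The mice were of the strain B6NCrl, without any allele or treatment stated in the labels, at embryonic day 14.5. The study held 1 group of 2 libraries: replicate 1 came from pup 1 of dam 1 and replicate 2 from pup 1 of dam 2. Each sample was described as 1 dissected tube, while its sex was given as male and female pooled, and nothing used here settles which applies.

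MicroRNAs are short RNAs cut from a hairpin precursor. They pair with messenger RNAs mainly through their seed, bases 2 to 8, so genes with the same seed are treated as a family with overlapping targets. MiR-34a is a classical p53-induced miRNA that restrains the cell cycle. The miR-34b/c and miR-449 clusters are known from multiciliated cells, such as ependymal, airway and choroid plexus cells, where the family helps basal bodies multiply and dock. Mir204 lies within Trpm3 and Mir211 within Trpm1, ion channel genes, and both are known from the retinal pigment epithelium. Mir204 is also known from the choroid plexus, and Mir211 from melanocytes.

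The mature sequences show why these genes form 2 families. They are from RefSeq on GRCm38.p6, are written 5′ to 3′, and have the seed in capitals. Of the 8 genes, 7 matched an entry, with 13 mature sequences in all, and Mir449b and the 5p arm of Mir34c had no entry. The first 4 below share the seed GGCAGUG and the last 2 share UCCCUUU.
miR-34a-5p: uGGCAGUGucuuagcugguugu
miR-34b-5p: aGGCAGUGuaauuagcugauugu
miR-449a-5p: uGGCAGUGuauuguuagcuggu
miR-449c-5p: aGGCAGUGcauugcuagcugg
miR-204-5p: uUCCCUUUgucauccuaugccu
miR-211-5p: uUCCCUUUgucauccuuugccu

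The 4 matures shown with GGCAGUG are all those in the table that have it, of 1679 mature names. The Mir34c hairpin also holds these 7 letters. MiR-34a-5p and miR-449a-5p are alike over their first 9 bases and agree at 15 of 22 positions. MiR-204-5p and miR-211-5p agree at 21 of 22 positions and differ by A17U, with miR-204-5p given first and positions counted from 1 at the 5′ end. The seed UCCCUUU occurs in 1 further mature sequence of the table, miR-7670-3p, whose gene Mir7670 had 0 counts in both libraries. The 3p arm of Mir204 shares its seed with miR-7684-5p, whose gene Mir7684 also had 0 counts in both.

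The opposite arms of Mir34b and Mir34c form a seed pair of their own, AUCACUA, found in no other mature sequence of the table. They are shown because these neighbouring genes differed widely in level. They agree at 17 of 22 positions and differ by U11C, C12A, U16A, U21G and C22G, with miR-34b-3p first.
miR-34b-3p: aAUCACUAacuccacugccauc
miR-34c-3p: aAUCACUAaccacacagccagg

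The tables count reads per gene, so the arms of a hairpin cannot be told apart. A read that fitted several genome positions was counted for no gene, which touches 32.4% (replicate 1) and 33.3% (replicate 2) of all reads. For that reason the hairpins were compared with each other and with all GENCODE M21 transcripts. The longest run that 2 of the 7 hairpins shared was 17 bases, between Mir204 and Mir211, followed by 11 bases between Mir34b and Mir34c and between Mir34a and Mir449a. Of all stretches of 18 bases in the 7 hairpins, 1 occurred in a transcript of another gene: a stretch of Mir211 outside its mature arms, found in Plag1. Matches elsewhere in the genome were not analysed here.

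Positions are on GRCm38, the assembly also called mm10, and are counted from 1. Mir34a lies at chromosome 4, 150068454 to 150068555, and its end overlaps an exon of the unclassified transcript Gm37795 on the same strand. Mir34c lies at chromosome 9, 51103034 to 51103110, and Mir34b at chromosome 9, 51103562 to 51103645, 451 bases apart on the minus strand. Both are opposite an intron of Btg4. The Mir449 genes lie in an intron of Cdc20b on chromosome 13: Mir449c at 113035983 to 113036091, Mir449b at 113037419 to 113037498 and Mir449a at 113037534 to 113037624. An intron of Trpm3 holds Mir204, at chromosome 19, 22750605 to 22750672. An intron of Trpm1 holds Mir211, at chromosome 7, 64205806 to 64205911.

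Replicate 1 held 3172235 sense-strand counts on miRNA genes and replicate 2 held 3671915. Levels are counts per 1000000 of these (CPM), given as mean ± SD over both libraries (n = 2). Intervals are exact 95% intervals and, like the limit that a count of 0 allows (3 counts, or 0.946 CPM in replicate 1 and 0.817 CPM in replicate 2), cover counting error only. The neural tube label was checked against miRNAs of the nervous system: 12 of 15 measured genes reached 10 counts in each library, led by Mir137 at 9457 ± 193 CPM and Mir135b at 4762 ± 352 CPM. The gene copies Mir124a-1, Mir124a-2 and Mir124a-3 were at 6.44, 2.40 and 1.78 CPM and Mir9-2 at 1.33 CPM. Its copy Mir9-3 was at 517 CPM. Reads that fit several gene copies were counted for none, so these values may understate the mature miRNAs, which was not tested. All measured genes of the sensory (3), erythroid (3) and leukocyte (4) lists described further on were detected too, with the endothelial gene Mir126a at 12857 CPM, so this count shows nervous system miRNAs to be present and does not tell the tissue from others. In a bulk tissue, fewer cells of a type and less RNA per cell cannot be told apart.

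Mir34c and Mir204 carried most of the signal of these genes, and the other members of their families were far lower. At least 10 counts in both libraries were found for 5 of the 8 genes: Mir34c, Mir204, Mir34a, Mir449a and Mir34b. Mir211 and Mir449c had 1 to 3 counts in the libraries that held any, and Mir449b had no count. No gene of the 8 had a read on the other strand, where 1.26% and 1.49% of the counts on all miRNA genes lay. Together the 8 genes held 0.0811% ± 0.00440 of all miRNA counts.

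**Figure D1:**
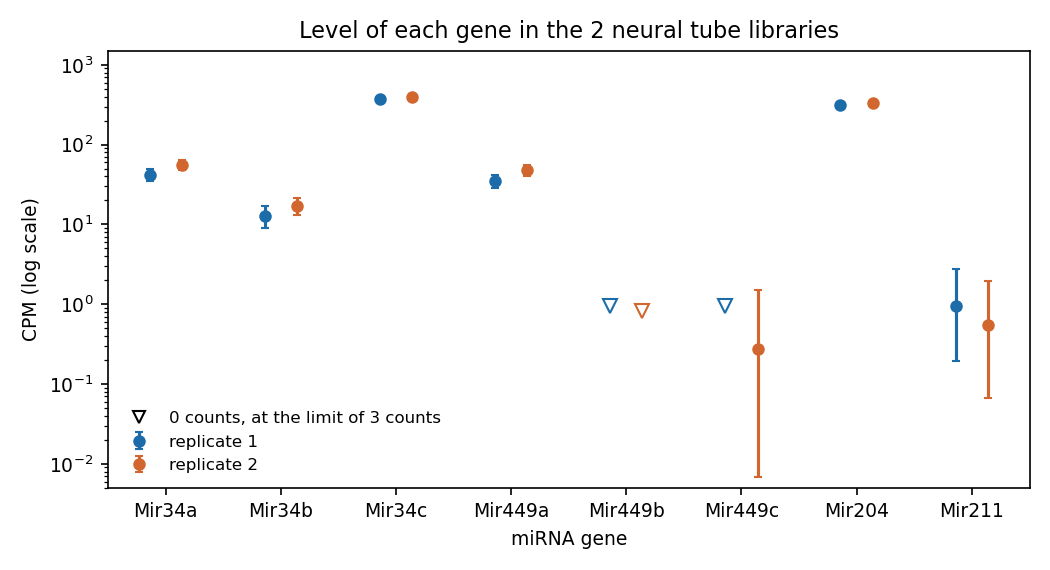
CPM on a log axis for each of the 8 genes in replicate 1 and replicate 2, with exact 95% Poisson intervals of the counts; open triangles stand for 0 counts and sit at the limit of 3 counts. Mir34c and Mir204 lie at 314 CPM or more in both libraries, Mir34a, Mir449a and Mir34b between 12.6 and 55.8 CPM, and the other genes near or under 1 CPM.

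Mir34a, which shares no cluster with another member, had 131 counts in replicate 1 (41.3 CPM) and 205 in replicate 2 (55.8 CPM). Its mean was 48.6 ± 10.3 CPM, rank 231 of 1973 genes. Replicate 2 was the higher library, by 1.35-fold in CPM. After the scaling between libraries described further on, this was 1.16-fold, with an interval that includes no difference.

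Mir34c, of the chromosome 9 cluster, had 1191 counts in replicate 1 (375 CPM) and 1444 in replicate 2 (393 CPM). Its mean of 384 ± 12.6 CPM placed it at rank 116. Mir34b, its neighbour, had 40 counts (12.6 CPM) and 62 counts (16.9 CPM), a mean of 14.7 ± 3.02 CPM and rank 282. Both libraries therefore held far more Mir34c than Mir34b: the ratio of counts was 29.8 in replicate 1 (95% interval 21.7 to 41.9) and 23.3 in replicate 2 (18.1 to 30.5). The hairpins have 77 and 84 bases, so dividing by length would change this ratio little. Whether counts rise with length was not tested. Mir34c made up 96.8% (95.6 to 97.7) and 95.9% (94.8 to 96.8) of the counts of the pair.

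Of the Cdc20b cluster, Mir449a alone was well above the limit. It had 111 counts in replicate 1 (35.0 CPM) and 174 in replicate 2 (47.4 CPM), a mean of 41.2 ± 8.77 CPM and rank 239. Mir449b, 35 bases before it, had 0 counts in each library. The count of Mir449a was 37 times the limit of 3 counts in replicate 1 and 58 times it in replicate 2. These folds leave out the counting error of Mir449a itself. Mir449c, 1442 bases before Mir449a, had 0 counts in replicate 1 and 1 count in replicate 2 (0.272 CPM, exact 95% interval 0.00689 to 1.52). At this depth no read was counted for Mir449b, and the interval of Mir449c reaches down to nearly 0. Mir449b was not among the hairpins compared for shared stretches, so reads lost to several genome positions were not looked into for it.

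Mir204 had 997 counts in replicate 1 (314 CPM) and 1203 in replicate 2 (328 CPM), a mean of 321 ± 9.43 CPM and rank 129. Mir211, which has the same seed, had 3 counts (0.946 CPM, 0.195 to 2.76) and 2 counts (0.545 CPM, 0.0660 to 1.97). Mir204 held 99.7% (99.1 to 99.9) and 99.8% (99.4 to 99.98) of the counts of the pair. The ratio of Mir204 to Mir211 was 332 (113 to 1614) and 602 (166 to 4972), intervals that are wide because so few Mir211 reads were found. Nearly all reads of this seed family were thus counted for the gene within Trpm3. No messenger RNA was measured, so neither host gene nor any choroid plexus or pigment cell marker outside miRNAs could be set beside it.

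The order of the levels was Mir34c, Mir204, Mir34a, Mir449a, Mir34b, then Mir211, Mir449c and Mir449b. Mir34c and Mir204 did not overlap between the libraries, and Mir34c held 54.4% (52.3 to 56.5) and 54.6% (52.6 to 56.5) of their joint counts. Mir204 was well above Mir34a in both libraries. Mir34a and Mir449a overlapped between libraries, and the share of Mir34a in their joint counts, 54.1% in each, had intervals of 47.6 to 60.5 and 48.9 to 59.2, so they were not separated. Mir449a and Mir34b did not overlap, with Mir449a at 73.5% (65.7 to 80.4) and 73.7% (67.6 to 79.2) of their joint counts. The 3 lowest genes could not be ordered, as the intervals of their counts overlapped. Divided by gene length, the order of the 5 highest genes stayed as it was. Mir34c, Mir204, Mir34a, Mir449a and Mir34b were at 4992, 4720, 476, 453 and 176 CPM per 1000 bases. This division is a description only. The mature sequences printed above vary little in length, from 21 to 23 bases, and whether counts rise with gene length was not tested.

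Summed over its 6 genes, the miR-34/miR-449 family had 1473 counts in replicate 1 (464 CPM) and 1886 in replicate 2 (514 CPM), or 489 ± 34.9 CPM. Mir204 and Mir211 together had 1000 counts (315 CPM) and 1205 counts (328 CPM), or 322 ± 9.14 CPM. The first family exceeded the second by 1.47-fold in replicate 1 (95% interval 1.36 to 1.60) and 1.57-fold in replicate 2 (1.46 to 1.68). This ratio is taken within a library and needs no scaling between libraries. As with every ratio or share of different genes here, its interval covers counting error only. Whether the libraries captured different sequences equally was not tested.

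Within the miR-34/miR-449 family, Mir34c made up 80.9% of the counts in replicate 1 (78.8 to 82.8) and 76.6% in replicate 2 (74.6 to 78.5). Mir34a made up 8.89% (7.49 to 10.5) and 10.9% (9.50 to 12.4). Mir449a made up 7.54% (6.24 to 9.00) and 9.23% (7.96 to 10.6), and Mir34b 2.72% (1.95 to 3.68) and 3.29% (2.53 to 4.19). The chromosome 9 pair thus held 81.7% ± 2.63 of the family, and the 3 Mir449 genes 8.41% ± 1.23. The share of Mir34c was lower in replicate 2, and its counting intervals did not overlap between the libraries. For the other 3 genes they did. Whether these shares differ between litters could not be tested with 1 library per dam.

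**Figure D2:**
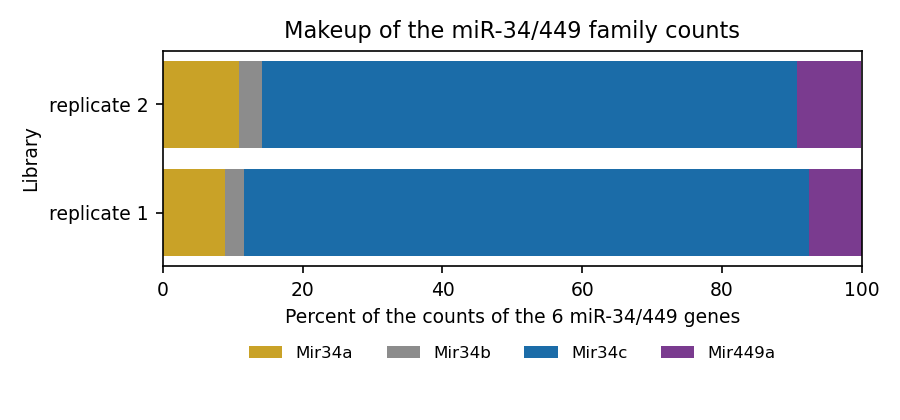
Share of Mir34a, Mir34b, Mir34c and Mir449a in the summed counts of the 6 miR-34/miR-449 genes (percent), with 1 bar per library; the single count of Mir449c is not drawn. Mir34c fills 80.9% of the bar of replicate 1 and 76.6% of that of replicate 2.

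The libraries of the 2 dams were compared gene by gene. Ratios are log2 of replicate 1 over replicate 2 after TMM scaling (trimmed mean of M-values), which sets the median gene near 0. A gene was tested when either library held 10 or more of its counts, and it was called when the adjusted p was below 0.05 and the ratio at least 2-fold. Of the 5 genes tested here 0 were called, where 37 of 360 genes (10.3%) were called over the whole table, 14 as higher in replicate 1 (3.89%) and 23 as higher in replicate 2 (6.39%), by an exact binomial test (two-sided, p-values adjusted by Benjamini and Hochberg). This compares 2 libraries, not litters, as each dam gave 1 library. For all 5 genes the interval of the ratio lay within 2-fold in either direction, as it did for 70.3% of all genes tested. The median absolute log2 ratio was 0.20 over the 5 genes and 0.29 over the 360. Among the 167 tested genes with a mean level from that of Mir34b to that of Mir34c, these 5 included, 12 were called and that median was 0.26. A count of 0 among 5 genes is near these backgrounds and marks nothing particular to them.

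Mir34c had a log2 ratio of 0.15 (95% interval 0.03 to 0.26, adjusted p = 0.0192, exact binomial test) and Mir204 one of 0.15 (0.03 to 0.28, adjusted p = 0.0263). Both are past the p threshold but short of 2-fold. They share that with many genes, since 56.7% of the 360 had an adjusted p below 0.05 when counting error alone is considered. With an assumed coefficient of variation of 0.2 between the libraries, neither Mir34c nor Mir204 passed the p threshold. With scaling by total counts, which moves the median of all tested genes from -0.02 to -0.23, Mir34c turned to -0.067 and Mir204 to -0.060, so their direction depends on the scaling.

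The 3 lower genes of the miR-34/miR-449 family had ratios on the side of replicate 2. Mir34a stood at -0.22 (-0.55 to 0.10, adjusted p = 0.266), Mir449a at -0.22 (-0.58 to 0.13, adjusted p = 0.294) and Mir34b at -0.20 (-0.82 to 0.39, adjusted p = 0.593), all by the exact binomial test. Each interval includes 0 with this scaling. With scaling by total counts Mir34a stood at -0.43 (adjusted p = 0.0133, exact binomial test) and Mir449a at -0.44 (adjusted p = 0.0222, exact binomial test), past the p threshold but short of 2-fold, and Mir34b at -0.41 (adjusted p = 0.231, exact binomial test). Mir34a and Mir449a, from different chromosomes, were 1.16-fold and 1.17-fold higher in replicate 2 after scaling. Mir34b and Mir34c, from the same cluster, had ratios on opposite sides of 0, and the interval of Mir34b covers that of Mir34c.

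**Figure D3:**
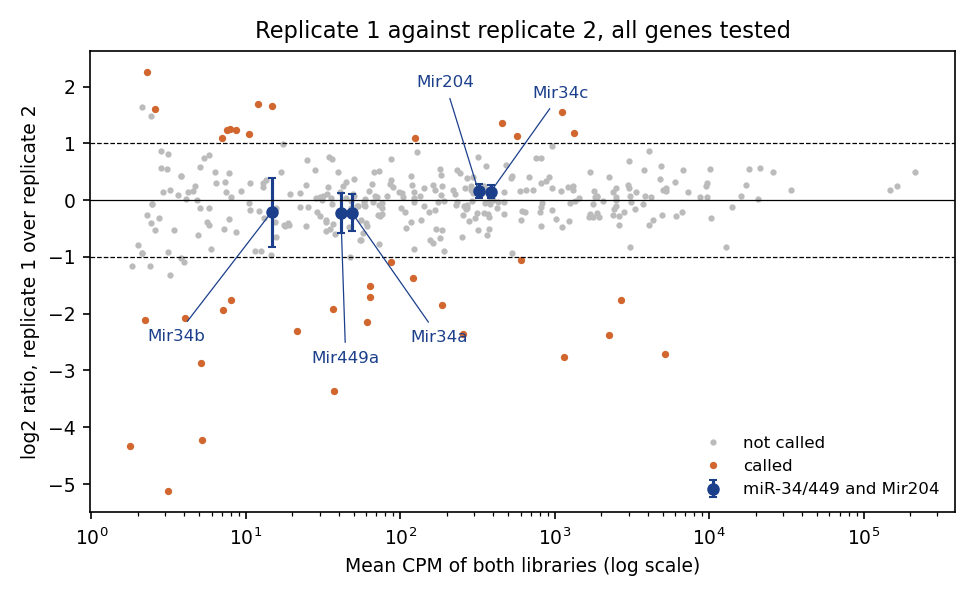
The log2 ratio of replicate 1 over replicate 2 against mean CPM (log axis) for the 360 genes tested; orange points were called, dashed lines mark 2-fold, and blue points with 95% intervals are Mir34a, Mir34b, Mir34c, Mir449a and Mir204. All 5 blue intervals lie between the dashed lines.

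The genes nearest in level over both libraries, by distance of log2(CPM + 1), are a description over 2 samples of 1 tissue. For Mir34c they were Mir330 (383 ± 13.6 CPM, distance 0.0090), Mir3071 (380 ± 43.8 CPM) and Mir16-2 (400.0 ± 40.1 CPM). For Mir204 they were Mir374b (338 ± 14.3 CPM, distance 0.10), Mir384 (297 ± 13.3 CPM) and Mir676 (348 ± 6.95 CPM). Mir34a was nearest to Mir18b, Mir377 and Mir206, and Mir449a to Mir679, Mir539 and Mir3072. Mir34b was nearest to Mir7689, Mir144 and Mir3078. None of these 15 genes belongs to either family.

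Other miRNA genes known as p53-regulated, a list of 8 that leaves out all miR-34 genes, were set beside Mir34a. Of these, 7 were measured and 5 had at least 10 counts in both libraries. Mir15a (2066 ± 228 CPM) and Mir16-1 (1786 ± 39.2 CPM), cluster neighbours that restrain the cell cycle, were the highest. The list held 5102 CPM in replicate 1 and 5543 CPM in replicate 2, against 41.3 and 55.8 CPM for Mir34a alone. Most of that sum came from Mir15a, Mir16-1 and Mir107 (mean 1321 CPM). Mir194-2 (mean 76.3 CPM) and Mir192 (71.9 CPM) were nearer to Mir34a, and Mir215 (1.20 CPM) and Mir194-1 (0.430 CPM) were below it. Of the 5 tested genes 0 were called, and their log2 ratios ran from -0.26 to 0.18, with a median of -0.01. Mir34a at -0.22 lay within that range.

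MiRNAs of some other cell types differed between the libraries by far more than the genes described here. The sensory and photoreceptor cluster Mir183, Mir96 and Mir182 had a summed level of 2109 CPM (replicate 1) and 15050 CPM (replicate 2), and 3 of 3 genes were called, with Mir182 at a log2 ratio of -2.71 and Mir183 at -2.38. Mesenchymal miRNAs were at 3502 and 7561 CPM, with 5 of 6 tested genes called as higher in replicate 2, namely Mir143 at -1.76, Mir145a, Mir199a-2, Mir199b and Mir214, while Mir140 stood at 0.00. The endothelial gene Mir126a was at 8443 and 17271 CPM (log2 ratio -0.82, not called). In the same libraries Mir34c stood at 375 and 393 CPM and Mir204 at 314 and 328 CPM. Of the 13 tested neural genes, 2 were called as higher in replicate 1, Mir128-1 and Mir128-2. Whether these differences have a part in the small ratios of the 5 genes was not tested.

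Lists for epithelia and blood were near or below the level of the genes described. Epithelial miRNAs summed to 407 and 508 CPM, mostly from Mir203 at 424 ± 71.1 CPM, and 1 of 5 tested genes, Mir200c, was called as higher in replicate 1. Leukocyte miRNAs summed to 152 and 280 CPM, with Mir223 called as higher in replicate 2 at a log2 ratio of -2.14. Erythroid miRNAs summed to 94.3 and 113 CPM, led by Mir451a at 76.3 ± 16.9 CPM, with 1 of 3, Mir486, called as higher in replicate 1. Muscle miRNAs summed to 47.6 and 55.6 CPM, mostly Mir206, with 0 of 1 called. Mir34c and Mir204 were thus each above the sums of the measured leukocyte, erythroid and muscle genes in both libraries. Mir34a, Mir449a and Mir34b were in the range of single genes of those lists. The leukocyte sum lacks Mir142 and the muscle sum lacks Mir1a-2, and 2 measured muscle genes had no count. Reads that fit several gene copies were counted for none, so these sums may understate the miRNAs of those cell types, which was not tested.

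**Figure D4:**
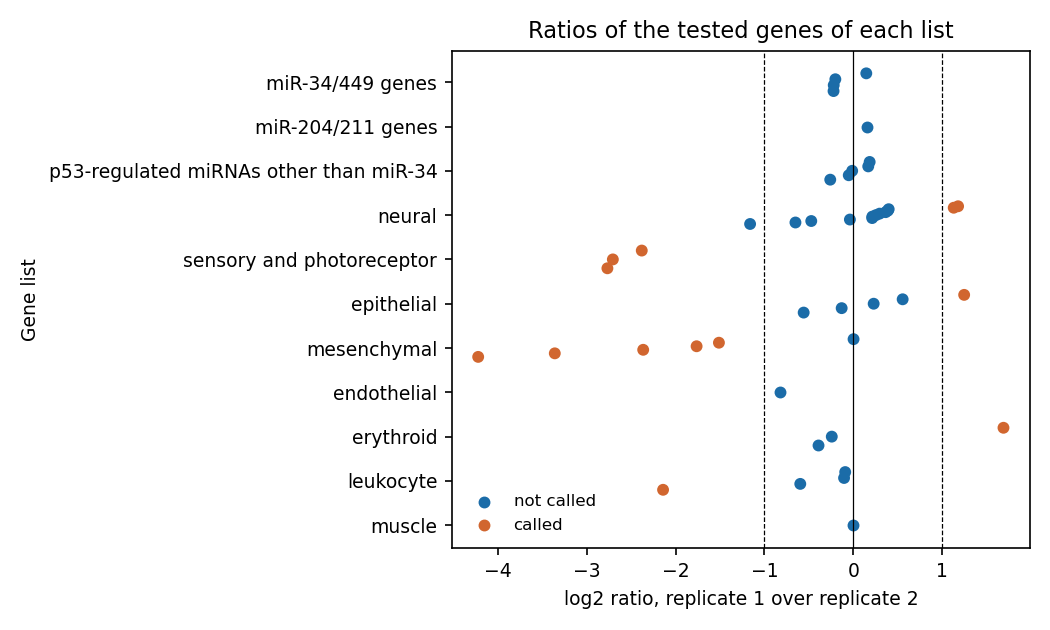
The log2 ratio of replicate 1 over replicate 2 for each tested gene of 11 lists, with called genes in orange and dashed lines at 2-fold. The miR-34/miR-449 genes and Mir204 lie between -0.22 and 0.15, while the 3 sensory genes lie at -2.38 and below.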

How the data were processed

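The data are microRNA sequencing counts from 2 neural tube libraries. The authors deposited raw read counts per miRNA gene, 1 table per library, with columns for reads on either strand, the sense strand and the other strand. They derive from alignments to mm10 with the gene annotation M4, per the deposited text notes. Which aligner, trimming and filters were used is not given in the sources used here. The 4 rows that name no gene stayed out of library sizes: reads at several positions (32.4% and 33.3%), unmapped reads (11.5% and 11.8%), reads on no gene (2.75% and 3.01%) and ambiguous reads (0%).

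Sense counts were used. Of 1973 identifiers, 1894 matched GENCODE M21 (GRCm38) without their version. The members and lists were chosen with earlier results of these data known. Named genes were all 8 members, the 3 genes nearest to each detected member in level, genes sharing a seed, and up to 2 of the highest genes of each list. Further genes (Mir9-2, Mir9-3, Mir96, Mir107, Mir124a-1, Mir124a-2, Mir124a-3, Mir128-1, Mir128-2, Mir145a, Mir192, Mir194-1, Mir194-2, Mir199a-2, Mir199b, Mir200c, Mir214, Mir215 and Mir486) were named after their values were seen. Mir9-1, Mir142, Mir605, Mir1a-2 and Mir124-2hg (a host gene listed by mistake among miRNA genes) were not analysed here.

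For each gene that reached 10 counts in either library, the counts were set against TMM-scaled library sizes (edgeR 4.0.16, R 4.3.3) in an exact binomial test, two-sided, with a prior count of 0.5 for log2 ratios and Benjamini-Hochberg adjustment. A quasi-likelihood fit needs residual degrees of freedom, which 2 libraries of 2 dams do not leave, so the p-values measure counting error between these libraries. Reads carry no stated molecular identifiers and are not independent molecules. Shares and ratios have exact binomial intervals (scipy 1.17.1). Alternatives were scaling by total counts or by DESeq2 1.42.0 size factors, either-strand counts, other filters, other totals, an assumed coefficient of variation of 0.2, and each library alone. The test was also run on simulated counts with counting error only and with known changes larger than the members' ratios. That run does not show how the test does with further spread between libraries or with ratios this small. Python 3.11.15, numpy 2.4.6, pandas 2.3.3 and matplotlib 3.10.9 were used.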

Additional observations from a re-analysis of the deposited data

How the results depend on the processing

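Levels depend on the total they are divided by. Per 1000000 of all reads in the table, the miR-34/miR-449 sum was 257 and the Mir204 and Mir211 sum 169, and with the 3 most abundant genes (Mir10b, Mir10a and Mir99a) left out of the total they were 1036 and 683 CPM. These sums ranged from 464 to 514 CPM and from 315 to 328 CPM with either library left out, the share of the Mir34b and Mir34c pair from 79.9% to 83.6%, the share of the miR-34/miR-449 family in all 8 genes from 59.6% to 61.0%, and its ratio to Mir204 and Mir211 from 1.47 to 1.57. Either-strand counts left the genes' counts as they were. With scaling by total counts the log2 ratio of Mir34c was -0.067 (adjusted p = 0.318, exact binomial test) and that of Mir204 -0.060 (adjusted p = 0.423, exact binomial test), on the other side of 0. With that scaling Mir34a was at -0.43 (adjusted p = 0.0133, exact binomial test) and Mir449a at -0.44 (adjusted p = 0.0222, exact binomial test), past the p threshold, which neither passed with TMM, but short of 2-fold. No member was called under any setting run. With an assumed coefficient of variation of 0.2, none of the 5 tested members passed the p threshold. Over all genes, 21 in place of 37 were called with a filter of 100 counts over both libraries and 21 with an assumed coefficient of variation of 0.2. With scaling by total counts 43 were called, 8 higher in replicate 1 and 35 higher in replicate 2, in place of 14 and 23. With a filter of 1 count, Mir211 and Mir449c were tested too, and 37 of 678 genes were called. No paired analysis was possible because the series holds 1 group. Levels per 1000 bases were added after the data were seen. Depth limits Mir211, Mir449b and Mir449c, which had at most 3 counts per library.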
